A study of Mus musculus with 6 samples.

Results

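Goblet cells make and secrete the mucus that covers the intestinal epithelium, and 10 genes of this mucus and of the cells that make it were followed through the sorted cells of the small bowel muscularis externa (ME). The genes were taken by symbol, namely Muc2, Fcgbp, Zg16, Clca1, Tff3, Spink4, Muc13, Agr2, Spdef and Ccl25, and all 10 were among the 26110 genes listed. RNA-seq had been performed on MHCIIhi cells that were sorted as CX3CR1- or CX3CR1+ from the ME of untreated mice, with 3 libraries for each population. All animals carried the CX3CR1+/GFP genotype on a C57BL/6 background, in which GFP stands for Cx3cr1 expression, so that both populations had 1 intact Cx3cr1 allele. The study used female mice throughout and gives no age, the ME of 6 mice was pooled in each group, and whether separate pools were made for the libraries is not stated. Differences therefore are set against the spread between libraries, which may be partly technical. The labels name the cells as dendritic cells and the study names them as macrophages, and neither names epithelium.

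The Cx3cr1 transcript followed the sort, at 18.9 to 28.5 in CX3CR1- and 347 to 380.4 in CX3CR1+ libraries. H2-Ab1, an MHC class II gene, was at 21599.5 or more in all 6 libraries. All values are expression values that the authors had normalized between libraries. The libraries held about 5346379 to 17616748 reads, and a value of 1.39 to 5.36, depending on the library, corresponded to 3 reads, which was taken as the lowest measurable level. Mitochondrial genes made up 47.5 to 54.9% of the normalized total in CX3CR1- and 18.1 to 21.2% in CX3CR1+ libraries.

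Intestinal mucus is a gel of the secreted mucin Muc2, which goblet cells fold and link in the endoplasmic reticulum, decorate with O-linked sugars in the Golgi and store in granules. Other goblet cell proteins are released with it and shape, cleave or cross-link the gel, whereas transmembrane mucins stay on the cell surface. Goblet cells lie in the mucosal epithelium, and the ME beneath it is made of smooth muscle, neurons, glia and resident leukocytes. In a bulk library, fewer cells of a type and less RNA per cell cannot be told apart.

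All 10 genes were higher in every CX3CR1- than in every CX3CR1+ library. Muc2, Fcgbp, Zg16 and Clca1 made up 77.7 to 85.2% of the summed level of the 10 genes in CX3CR1- libraries. In CX3CR1+ libraries, 4 of the 10 genes were at 0 in all 3 libraries and 6 did not exceed 3 reads in any. The sum of the 10 genes was 7567, 4538 and 3141 in CX3CR1- replicates 1, 2 and 3, and 61.2, 68.8 and 67.7 in CX3CR1+ replicates 1, 2 and 3. This was 0.0586 to 0.135% of the non-mitochondrial total in CX3CR1- libraries.

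For the test, log2(value + 1) was compared between the populations over 17812 genes, those averaging 10 or more across libraries, and genes were called where the difference reached 1 on the log2 scale, with adjusted p not above 0.05. Positive differences stand for more transcript in CX3CR1- cells. Of all tested genes, 20.4% were called in either direction and 12.2% were called higher, and 20.3% had every CX3CR1- library above every CX3CR1+ library. Of the 10 goblet mucus genes, 9 reached the mean of 10 and each of these 9 was called higher. However, 8 of the 9 reached it only through the CX3CR1- libraries, and of all 1930 tested genes with a CX3CR1+ mean under 10, 49.4% were called higher. Ccl25 was the 1 gene that passed on its CX3CR1+ level too, and among such genes 7.71% were called higher.

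**Figure D1:**
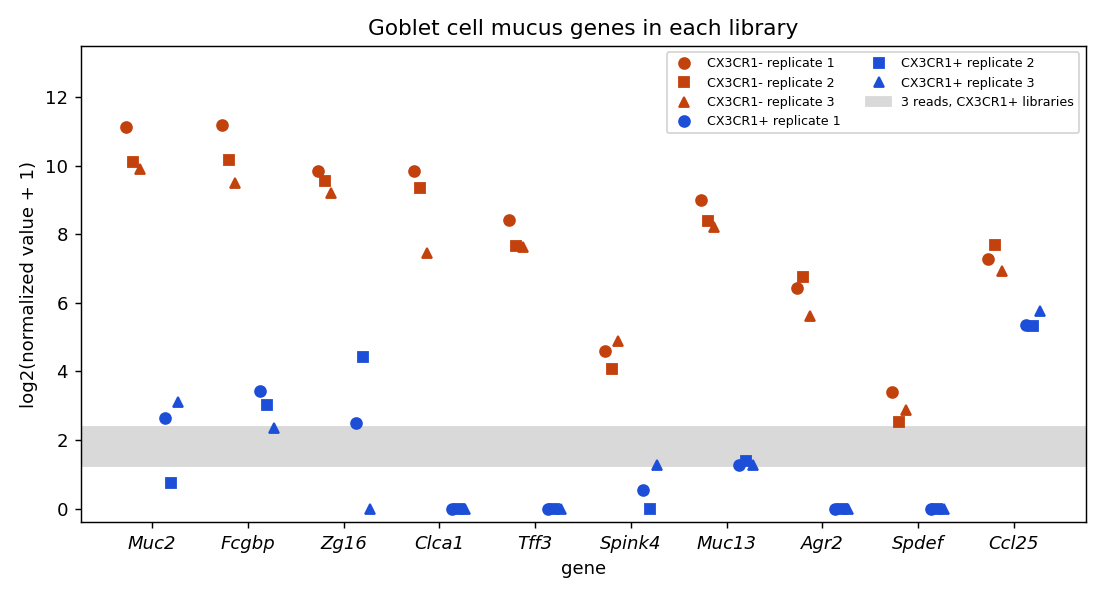
Level of each goblet cell mucus gene in each of the 6 libraries, as log2(normalized value + 1), with CX3CR1- libraries in orange and CX3CR1+ libraries in blue and a marker shape for each replicate number. The grey band spans the value of 3 reads in the CX3CR1+ libraries, and in each gene all 3 orange points lie above all 3 blue points.

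Muc2 encodes the gel-forming mucin that is the main structural protein of intestinal mucus, and it lies on chromosome 7 of GRCm38 from 141690340 to 141754693. Muc2 was at 2268, 1111 and 951 in CX3CR1- replicates 1, 2 and 3 and at 5.18, 0.663 and 7.63 in CX3CR1+ replicates 1, 2 and 3. The first CX3CR1- library stood above the other two, and the lowest CX3CR1- value was 125 times the highest CX3CR1+ value. The group means were 1443 ± 719 (SD, n = 3) and 4.49 ± 3.54 (SD, n = 3), a 321-fold difference. On the log2 scale the fitted difference was 8.23 ± 0.58 (SE), with an adjusted p by limma of 9.24e-06. Without CX3CR1+ replicate 2, in which Muc2 was under 3 reads, the log2 fold change was 7.52.

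Fcgbp encodes a large secreted protein with von Willebrand factor domains that is found in the mucus gel together with Muc2. Its CX3CR1- values were 2345, 1150 and 726 and its CX3CR1+ values 9.67, 7.08 and 4.07, in the order of the replicates. As for Muc2, the first CX3CR1- library was the highest, and the difference was 203-fold (log2 fold change 7.37 ± 0.44 SE, adjusted p = 4.38e-06). Of the 31-base stretches of Fcgbp transcripts, 12.3% also occur in other genes, mostly in 9530053A07Rik, so that pseudoalignment may divide reads between them. 9530053A07Rik itself was at 18.4 to 33.5 in all 6 libraries.

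Zg16, a lectin-like protein of mucus that binds Gram-positive bacteria, was at 918, 752 and 588 in CX3CR1- replicates 1, 2 and 3. In CX3CR1+ replicates 1, 2 and 3 it was at 4.62, 20.5 and 0, the widest spread of any of the 10 genes among the CX3CR1+ libraries on the log2 scale. The difference was 89.9-fold (log2 fold change 7.23 ± 0.86 SE, adjusted p = 2.13e-04). The log2 fold change was 8.29 without CX3CR1+ replicate 2 and 6.08 without CX3CR1+ replicate 3.

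Clca1, a secreted metalloprotease that cleaves Muc2, had CX3CR1- values of 914, 654 and 175 and was at 0 in all 3 CX3CR1+ libraries. It had the widest spread of the 10 genes among CX3CR1- libraries, with a 5.22-fold range. Against the mean value of 3 reads in the CX3CR1+ libraries, 2.70, Clca1 was at least 215-fold higher in CX3CR1- cells. Its fitted log2 fold change, 8.89 ± 0.61 (SE) at an adjusted p of 8.17e-06, depends on the pseudocount and is no such bound, and it was 9.60 without CX3CR1- replicate 3.

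Tff3, the trefoil peptide that goblet cells secrete with mucin and that is known for epithelial repair, was at 339, 200.3 and 199 in CX3CR1- libraries and at 0 in the 3 CX3CR1+ libraries. The last 2 CX3CR1- libraries were nearly equal, and the gene was at least 91.2-fold higher in CX3CR1- cells (log2 fold change 7.90 ± 0.50 SE, adjusted p = 5.62e-06). Spink4, a small secreted protein of the Kazal-type protease inhibitor family, was far lower, at 23.1, 15.9 and 28.5 in CX3CR1- and 0.456, 0 and 1.40 in CX3CR1+ libraries. It was highest in CX3CR1- replicate 3, unlike the other 9 genes. Spink4 was at least 8.34-fold higher in CX3CR1- cells (log2 fold change 3.92 ± 0.81 SE, adjusted p = 0.00557).

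Muc13 is a transmembrane mucin of the apical surface of goblet cells and absorptive enterocytes alike. It was at 511, 336 and 296 in CX3CR1- and at 1.39, 1.64 and 1.42 in CX3CR1+ libraries, so that no CX3CR1+ library exceeded 3 reads. Muc13 was at least 141-fold higher in CX3CR1- cells (log2 fold change 7.23 ± 0.39 SE, adjusted p = 2.76e-06, the smallest of the 9 tested). Of its 31-base stretches, 6.40% also occur in other genes, mostly Gm15657, which was at 0 in all 3 CX3CR1+ libraries.

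Agr2 encodes a protein disulfide isomerase of the endoplasmic reticulum that Muc2 needs for its folding. Its CX3CR1- values were 84.8, 108 and 48.0, highest in the second library, and all 3 CX3CR1+ values were 0. Agr2 was at least 29.7-fold higher in CX3CR1- cells (log2 fold change 6.27 ± 0.66 SE, adjusted p = 8.98e-05).

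Spdef encodes the ETS family transcription factor that drives goblet and Paneth cell maturation. Its CX3CR1- values were 9.65, 4.72 and 6.29 and its CX3CR1+ values 0, and in CX3CR1- replicate 2 it did not exceed 3 reads. With a mean of 3.44 over the 6 libraries it was below the limit for testing. It was at least 2.55-fold higher in CX3CR1- cells, and in a fit of all genes without that limit it was called higher (adjusted p = 0.0196, limma), where 9.51% of 26110 genes were called higher.

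**Figure D2:**
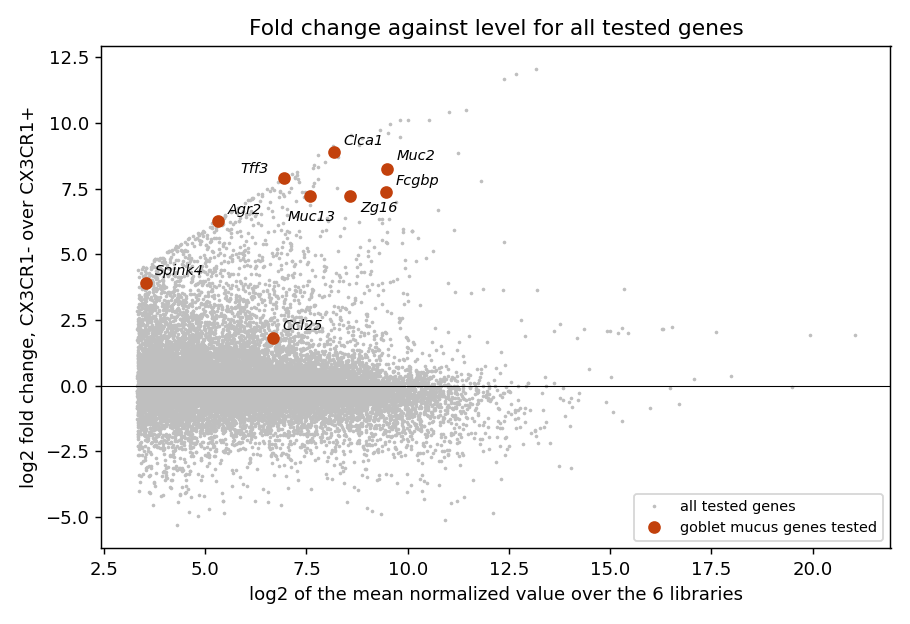
Log2 fold change of CX3CR1- over CX3CR1+ (vertical axis) against the log2 of the mean normalized value over the 6 libraries (horizontal axis) for the 17812 tested genes in grey, with the 9 tested goblet mucus genes in orange. Ccl25, at 1.83, lies well below the other 8, which run from 3.92 to 8.89. Tff3, Clca1 and Agr2, at 0 in all CX3CR1+ libraries, lie near the upper edge, and Muc2, Fcgbp and Zg16 lie further below it.

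The genome sequence around the start sites of these genes is shown because the genes were higher together. RefSeq promoters, from 250 bases before to 50 bases after a start site on GRCm38.p6, were at hand for 6 of the 10 genes, with 8 promoters in all. They were searched on both strands for the ETS core GGATG that SPDEF prefers, the E-box CAGCTG to which ATOH1 can bind, the CDX2 motif TTTATNG, the forkhead motif TGTTTAC and the TATA box TATAAA. Matches are in capitals on the strand of the gene, and overlapping matches run together. The promoters are those of Muc2 (chr7:141690090-141690389, plus strand), Fcgbp (chr7:28070986-28071285, plus strand), Agr2 (chr12:35992675-35992974, plus strand) and Spdef (chr17:27728902-27729201, minus strand).
Muc2: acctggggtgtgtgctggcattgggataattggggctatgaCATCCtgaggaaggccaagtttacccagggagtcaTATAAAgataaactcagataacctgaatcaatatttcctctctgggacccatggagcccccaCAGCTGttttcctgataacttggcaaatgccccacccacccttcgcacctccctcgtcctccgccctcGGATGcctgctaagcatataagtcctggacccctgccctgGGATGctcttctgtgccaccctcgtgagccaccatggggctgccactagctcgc
Fcgbp: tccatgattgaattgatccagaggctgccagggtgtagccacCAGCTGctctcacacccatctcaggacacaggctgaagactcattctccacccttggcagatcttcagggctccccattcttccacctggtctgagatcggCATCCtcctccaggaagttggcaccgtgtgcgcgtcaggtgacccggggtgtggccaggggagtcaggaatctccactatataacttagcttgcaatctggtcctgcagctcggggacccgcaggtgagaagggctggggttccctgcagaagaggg
Agr2: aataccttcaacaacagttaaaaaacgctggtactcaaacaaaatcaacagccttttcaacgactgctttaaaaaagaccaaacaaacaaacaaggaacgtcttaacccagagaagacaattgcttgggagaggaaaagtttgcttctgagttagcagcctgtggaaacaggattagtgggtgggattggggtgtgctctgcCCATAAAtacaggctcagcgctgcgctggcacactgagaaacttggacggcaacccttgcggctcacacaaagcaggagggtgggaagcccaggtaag
Spdef: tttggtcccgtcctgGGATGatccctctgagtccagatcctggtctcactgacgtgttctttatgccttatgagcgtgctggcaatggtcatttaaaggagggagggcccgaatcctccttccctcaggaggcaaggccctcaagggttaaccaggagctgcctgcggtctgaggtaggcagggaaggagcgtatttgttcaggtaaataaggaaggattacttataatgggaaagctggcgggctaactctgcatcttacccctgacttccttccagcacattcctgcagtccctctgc

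GGATG was present in 4 of the 8 promoters, those of Muc2, Fcgbp, Spdef and Muc13, against 43.2% of the 32851 mouse promoters of the same length. The E-box was found in 2 of 8, Muc2 and Fcgbp, against 16.3% of all, and the CDX2 motif in 2 of 8, Agr2 and Ccl25, against 10.9%. The TATA box letters were in those of Muc2 and Ccl25, against 13.6% of all promoters. They began at -174 from the start site in Muc2 and at -16 in Ccl25. The forkhead motif was in none of the 8 and in 3.65% of all. These matches describe the letters in the window and not the binding of a factor.

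Ccl25 encodes a chemokine of small bowel epithelium and thymus that attracts lymphocytes through the receptor Ccr9. It differed from the other 9 genes in that it was well above 3 reads in all 6 libraries. Its CX3CR1- values were 154, 206 and 122, and its CX3CR1+ values were 39.9, 38.9 and 53.2. The lowest CX3CR1- value was 2.30 times the highest CX3CR1+ value, and the group means were 161 ± 42.2 (SD, n = 3) and 44.0 ± 7.95 (SD, n = 3). This was a 3.65-fold difference with a log2 fold change of 1.83 (95% interval 1.16 to 2.50, adjusted p = 0.00156, limma). In the CX3CR1+ libraries, 10 genes used as markers of intestinal epithelial cells (pan-epithelial markers) summed to 22.6 to 52.2. The epithelial adhesion gene Epcam was at 0, 2.46 and 0 there, and Vil1, the villin gene of the brush border, at 24.1, 14.5 and 13.2. The part of epithelial RNA in the CX3CR1+ level of Ccl25 was not tested.

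The RefSeq table gives Ccl25 a pair of start sites, which are shown because values summed per gene do not tell transcripts from these starts apart. The upstream promoter (chr8:4324960-4325259, plus strand) had a GC content of 74.0% and 52 CG dinucleotides, whereas the downstream promoter (chr8:4349338-4349637, plus strand) had 51.7% and 1. Over all mouse promoters of this length, the median GC content was 52.7%, with 7 CG dinucleotides. The capitals in the downstream sequence mark a TATA box match that overlaps a CDX2 match on the other strand, and none of the 5 motifs was found in the upstream sequence.
Ccl25 upstream: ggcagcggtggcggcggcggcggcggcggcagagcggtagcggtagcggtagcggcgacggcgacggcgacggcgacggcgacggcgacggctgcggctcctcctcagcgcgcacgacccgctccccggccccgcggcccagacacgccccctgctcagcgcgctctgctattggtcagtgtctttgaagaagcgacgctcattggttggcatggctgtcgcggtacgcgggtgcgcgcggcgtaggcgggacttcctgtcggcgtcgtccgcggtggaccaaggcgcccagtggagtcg
Ccl25 downstream: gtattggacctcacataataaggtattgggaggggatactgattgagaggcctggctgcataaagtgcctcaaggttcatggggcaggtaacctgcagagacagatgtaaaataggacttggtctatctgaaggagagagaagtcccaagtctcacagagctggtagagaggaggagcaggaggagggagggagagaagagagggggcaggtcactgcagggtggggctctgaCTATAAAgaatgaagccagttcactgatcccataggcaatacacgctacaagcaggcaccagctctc

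Ccl25 shares 2.32% of its 31-base stretches with Elavl1, which was at 299 to 507 in the 6 libraries and was not called (log2 fold change -0.27, adjusted p = 0.468, limma). Of the receptors for Ccl25, the signalling receptor Ccr9 was at 100.2, 119 and 97.4 in CX3CR1- and at 77.6, 79.6 and 52.0 in CX3CR1+ libraries. Its groups did not overlap, but it was not called (log2 fold change 0.61, adjusted p = 0.158, limma). The scavenging receptor Ackr4, which many stromal and epithelial cells carry, was at 113, 46.3 and 164 in CX3CR1- and at 25.7, 8.60 and 8.21 in CX3CR1+ libraries, and was called higher (log2 fold change 2.86, adjusted p = 0.00464, limma).

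Levels of different genes were compared per kilobase of the longest transcript in GENCODE release M21, in CX3CR1- libraries. Muc2 was left out, since this annotation marks its locus as fragmented and its longest transcript there has 2926 bases. Zg16 had the highest level per kilobase, at 1041 ± 228 (SD, n = 3), followed by Tff3 at 499.6 ± 163 (SD, n = 3), and the ranges of these genes over the libraries did not overlap each other or that of the next gene. Fcgbp at 177 ± 106, Clca1 at 159 ± 103, Muc13 at 128 ± 38.5, Agr2 at 88.5 ± 33.4, Ccl25 at 63.0 ± 16.5 and Spink4 at 56.7 ± 16 (SD, n = 3 each) came next, and each of these overlapped its neighbour in this order. Spdef was last at 3.58 ± 1.31 per kilobase (SD, n = 3) and lay apart from Spink4.

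The 3 CX3CR1- libraries did not hold the 10 genes in one ratio. Of the 10 genes, 7 were highest in replicate 1, 2 in replicate 2 (Agr2 and Ccl25) and 1 in replicate 3 (Spink4), and 8 were lowest in replicate 3. Relative to Epcam in the same library, Muc2 was at 7.57, 4.50 and 3.36 in replicates 1, 2 and 3, and Clca1 at 3.05, 2.65 and 0.619. Zg16 varied less, at 3.07, 3.05 and 2.08 times Epcam. Agr2 was at 0.283, 0.438 and 0.169 times Epcam, with the second library above the others. The summed level of the 10 genes was 1.28, 1.04 and 0.921 times that of 10 genes used as pan-epithelial markers. Krt20, at 2619, 1826 and 969, and Vil1, at 1886, 1285 and 1265, made up much of the marker sum. With 3 libraries, these ratios are a description and were not tested.

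**Figure D3:**
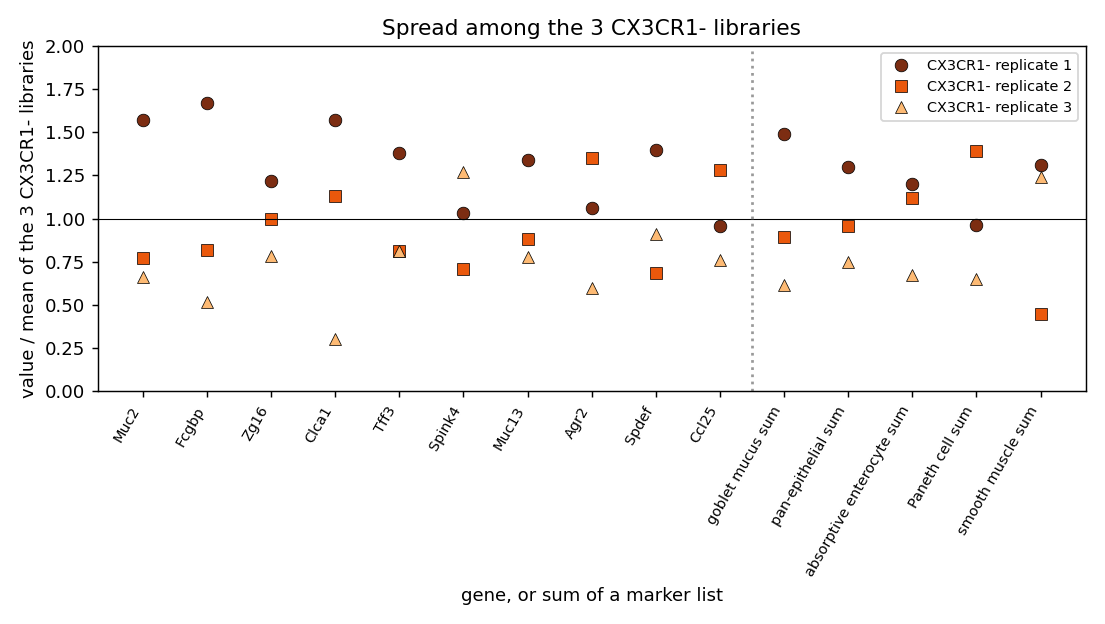
Value of each goblet mucus gene (left of the dotted line) and summed value of several gene lists (right) in the 3 CX3CR1- libraries, divided by their mean over these libraries. Replicate 1 is highest for 7 of the 10 genes, Clca1 spans 0.302 to 1.57, and the smooth muscle sum, which is lowest in replicate 2, follows another order than the goblet mucus sum.

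Other genes of the goblet cell programme were counted by role, together with the Ccl25 receptors Ccr9 and Ackr4, which are not goblet cell genes as such. The lists held 67 further genes, of which 59 were listed in the data and 44 tested. Of these 44, 16 (36.4%) were called higher and 4 (9.09%) lower, with 12.2% and 8.15% over all tested genes, and their median log2 fold change was 0.87, with -0.0035 over all tested genes. However, 14 of the 44 passed the limit for testing only through the CX3CR1- libraries, and 10 of the 16 called higher were among them. Of the 30 that passed on their CX3CR1+ level too, 6 (20%) were called higher and 4 lower. The share called higher among all such genes was 7.71%. Both receptors were among the 30, and Ackr4 was among the 6. Differences between the roles were not tested.

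Among the other mucus gel proteins, 1 of 4 tested was called higher, where 12.2% of all tested genes were. This was Itln1, a lectin of goblet and Paneth cells, at 17.7, 16.1 and 71.8 in CX3CR1- libraries and at 0 in the CX3CR1+ libraries. Itln1 passed the limit for testing only through the CX3CR1- libraries, where 49.4% of all such genes were called higher. It fell under that limit without CX3CR1- replicate 3. Of the gel-forming mucins of the stomach and airways, those tested were not called. Muc6 was at 134 to 269 in CX3CR1- and at 100.4 to 202 in CX3CR1+ libraries (log2 fold change 0.43, adjusted p = 0.426, limma), and for Muc5b the log2 fold change was 0.72 (adjusted p = 0.439, limma). Muc5ac was below the limit for testing, at 1.25, 14.7 and 2.74 in CX3CR1- libraries and at 0 in the CX3CR1+ libraries.

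Of the other transmembrane mucins, 4 of 6 tested were called higher, namely Muc3, Muc4, Muc3a and Muc1, where 12.2% of all tested genes were. However, 5 of the 6, with all 4 called, passed the limit for testing only through the CX3CR1- libraries. Of all such genes, 49.4% were called higher. Muc1 was not called when any 1 CX3CR1+ library was left out (adjusted p = 0.0518 to 0.0625, limma), nor Muc3a without CX3CR1+ replicate 1 or 2 (0.0865 and 0.0799). Muc3, a mucin of the enterocyte brush border, was at 149, 202 and 121 in CX3CR1- and at 0.910, 0 and 4.18 in CX3CR1+ libraries (log2 fold change 6.17, adjusted p = 7.85e-05, limma). Muc15 had the smallest log2 fold change, -0.30 (adjusted p = 0.843, limma). Muc16 was at 583, 26.7 and 114 in CX3CR1- libraries, so that 1 library carried most of its level, and it was not called.

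In the folding group, 1 of the 3 other tested genes was called higher, Creb3l1, a transcription factor of the endoplasmic reticulum stress response. Its log2 fold change was 1.91 (adjusted p = 0.00763, limma). All 3 passed the limit for testing on their CX3CR1+ level too, and 7.71% of all such genes were called higher. Xbp1 and Pdia6, which secretory cells of many kinds express, had log2 fold changes of 0.14 and -0.19. Of the transcription factors other than Spdef, 2 were tested and 1 was called higher. Both passed on their CX3CR1+ level too, where the share called higher was the same 7.71%. Klf4, which goblet cells and many other cells express, was at 1228, 1376 and 1185 in CX3CR1- and at 674, 653 and 562 in CX3CR1+ libraries, and was called higher at a log2 fold change of 1.0, at the limit of the rule. It fell short of 1 without CX3CR1- replicate 2 (0.94) and without CX3CR1+ replicate 3 (0.93). Foxa3 was not called (log2 fold change -0.32, adjusted p = 0.838, limma). Atoh1, the factor that commits crypt cells to the secretory lineage, was below the limit for testing, at 4.17, 17.9 and 8.97 in CX3CR1- libraries and at 0 in the CX3CR1+ libraries.

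Of 16 tested enzymes that build the O-linked sugars of mucins, 1 was called higher, 4 were called lower and 11 were not called. Of all tested genes, 12.2% were called higher and 8.15% lower. The enzyme called higher was B4galnt2 (log2 fold change 3.33, adjusted p = 0.0175, limma), which was not called without CX3CR1+ replicate 1 (adjusted p = 0.0607, limma). B4galnt2 passed the limit for testing only through the CX3CR1- libraries, where 49.4% of all such genes were called higher. St3gal6, a sialyltransferase, was at 136, 94.6 and 130.1 in CX3CR1- and at 1506, 1667 and 1538 in CX3CR1+ libraries, a log2 fold change of -3.71 (adjusted p = 2.98e-06, limma). Galnt3, Gcnt1 and Galnt12 were the others called lower, but Galnt12 was not called without CX3CR1- replicate 3 or any 1 of the CX3CR1+ libraries (adjusted p = 0.0703 to 0.187, limma). C1galt1, which makes the core on which most mucin sugars are built in many cell types, averaged 202 ± 26.0 (SD, n = 3) in CX3CR1- cells against 141 ± 29.7 (SD, n = 3), and was not called (adjusted p = 0.161, limma).

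Among 11 tested genes for granules and ion transport, 7 were called higher and none lower, where 12.2% of all tested genes were called higher. However, 4 of the 7 passed the limit for testing only through the CX3CR1- libraries, where 49.4% of all such genes were called higher. Of the 7 that passed on their CX3CR1+ level too, 3 were called higher, with 7.71% over all such genes. Klk1, a kallikrein protease that goblet cells of the mouse bowel express, had the largest log2 fold change at 5.47 (adjusted p = 0.0149, limma), but its groups overlapped, at 32.2, 444 and 217 in CX3CR1- and 0, 35.9 and 0 in CX3CR1+ libraries. With a library left out in turn, its log2 fold change ran from 4.6 (without CX3CR1+ replicate 1 or 3) to 7.21 (without CX3CR1+ replicate 2), and it was not called without CX3CR1- replicate 2 or 3 or CX3CR1+ replicate 1 or 3 (adjusted p = 0.0551 to 0.0650, limma). Guca2a, Fer1l6, Nlrp6, Bcas1, Sytl2 and Slc12a2 were the others called higher, and of these Slc12a2 was called with CX3CR1- replicate 2 left out, but not with any other library left out (adjusted p = 0.0535 to 0.0859, limma). Vamp8, a vesicle fusion protein of many secretory cells and leukocytes, had the smallest log2 fold change, -0.23 (adjusted p = 0.479, limma).

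**Figure D4:**
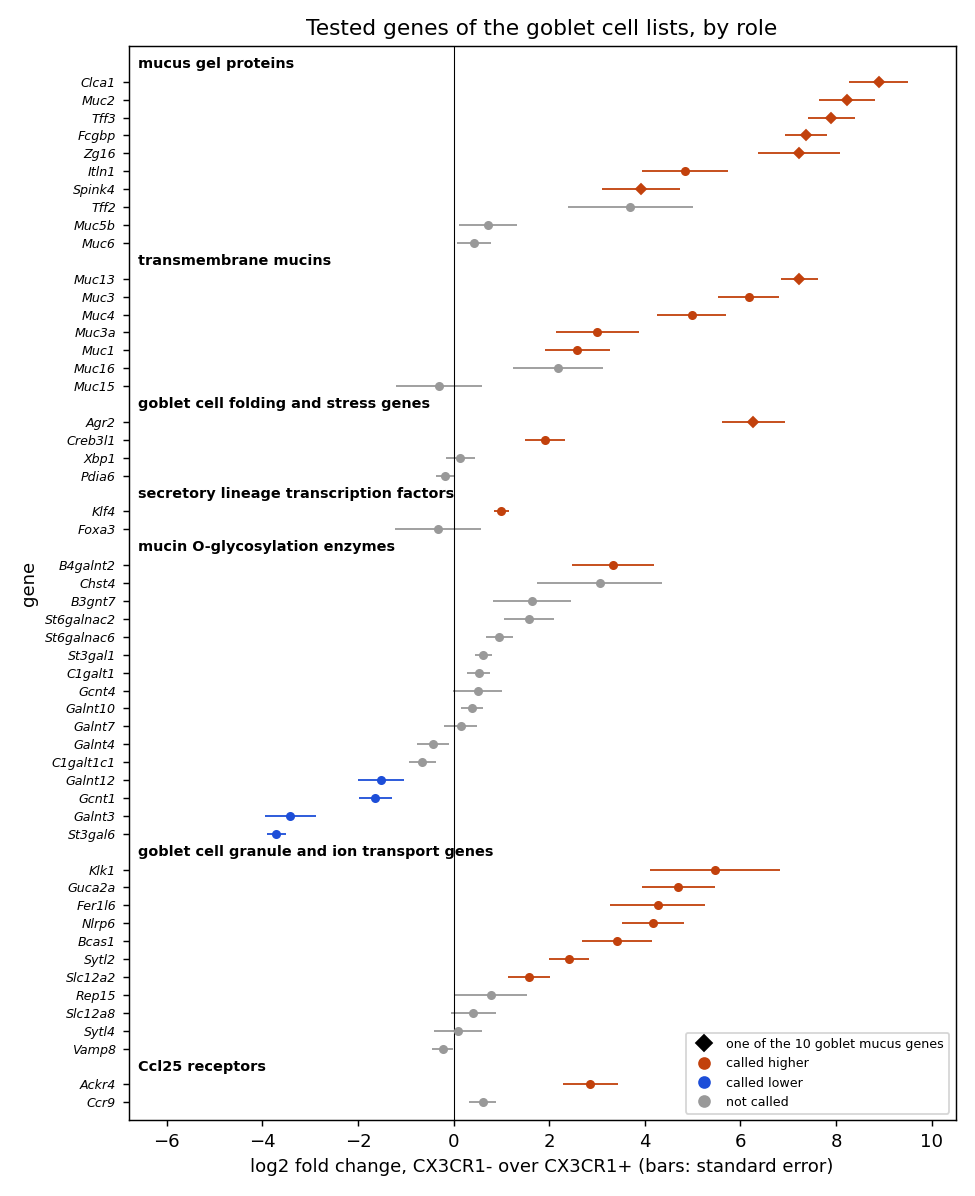
Log2 fold change of CX3CR1- over CX3CR1+ with its standard error for the tested genes of the goblet cell lists and the Ccl25 receptors, grouped by role. Orange marks genes called higher, blue genes called lower and grey genes not called, with diamonds for the 8 tested goblet mucus genes that these lists hold (Spdef was not tested and Ccl25 is in none of them). The O-glycosylation enzymes lie on both sides of 0, from -3.71 to 3.33, whereas the mucus gel proteins lie at 0.43 or above.

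Markers of several other cell types moved with the goblet mucus genes. Their counts stand beside the 12.2% of all tested genes called higher, or 49.4% of those that passed the limit for testing only through the CX3CR1- libraries. The latter made up 9 of 10 pan-epithelial, 9 of 10 enterocyte, 5 of 7 Paneth, 5 of 7 enteroendocrine, 1 of 3 tuft and 1 of 8 dendritic cell genes, and none of the tested stem cell genes. All 10 pan-epithelial markers were called higher, with a summed level of 3409.7 to 5925 in CX3CR1- and 22.6 to 52.2 in CX3CR1+ libraries. None of the 10 was at 0 in all CX3CR1+ libraries, and 3 did not exceed 3 reads there. Epcam was at 299.5, 247 and 283 in the CX3CR1- libraries. The 10 absorptive enterocyte genes were all called higher, with sums of 17617 to 31381 and 78.1 to 112, and Slc5a1, Apoa4 and Alpi were at 0 in the CX3CR1+ libraries. The summed enterocyte level thus exceeded that of the 10 goblet mucus genes in every CX3CR1- library.

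Of 7 tested Paneth cell genes, 4 were called higher (sums of 2407 to 5128 and of 29.5 to 74.2). Reg3g, Itln1, Defa17, Ang4 and Defa24 were at 0 in the CX3CR1+ libraries. However, Ang4 was at 0, 0 and 79.8 in CX3CR1- replicates 1, 2 and 3, Defa17 at 0, 7.15 and 83.8, and Defa24 at 0, 19.7 and 146. Ang4, Defa17 and Defa24 were not called. Lyz1 made up most of the CX3CR1- sum, at 3419, 4921 and 1953. The study, which writes Lys1, counts it with Ear2 and Fn1 as a marker of the monocyte-macrophage lineage. The part of Paneth cells in the level of Lyz1 was not tested. Of 7 tested enteroendocrine genes, 4 were called higher (418 to 801 and 15.3 to 53.5, with Sct at 0 in CX3CR1+ libraries). However, single genes varied widely between CX3CR1- replicates 1, 2 and 3. Sct was at 5.59, 107 and 19.2, Gip at 140.2, 209 and 0, and Cck at 3.42, 186 and 0. Gip and Cck were not called. The tuft cell list had 1 of 3 called higher (171 to 248 and 23.8 to 46.0, with Sh2d6 at 0). The crypt stem cell list had 2 of 2, Smoc2 and Slc12a2 (431 to 1729.5 and 204 to 265, with Olfm4 at 0). However, Slc12a2 is also in the granule and ion transport list, and it was not called under 6 of the 16 alternatives. The stem cell gene Lgr5 was below the limit for testing. It averaged 8.69 in CX3CR1- and 10.9 in CX3CR1+ libraries, and its groups overlapped. None of 6 smooth muscle genes was called (918 to 2675 and 1954 to 2745).

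Markers of the named cell types were present in both populations, though the dendritic cell gene Itgae was near the lowest measurable level in CX3CR1+ libraries. It was at 1.85, 3.29 and 0 in CX3CR1+ replicates 1, 2 and 3, where 3 reads corresponded to 1.39, 2.46 and 4.25. All 8 dendritic cell genes were called higher (4239 to 4682 and 471 to 549), where 12.2% of all tested genes were. All 8 macrophage genes were called lower (9461 to 11315 and 48357 to 53679), where 8.15% of all tested genes were. No gene of either list was at 0 throughout a population. The part of these cell types in the levels of the 10 goblet mucus genes was not tested.

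**Figure D5:**
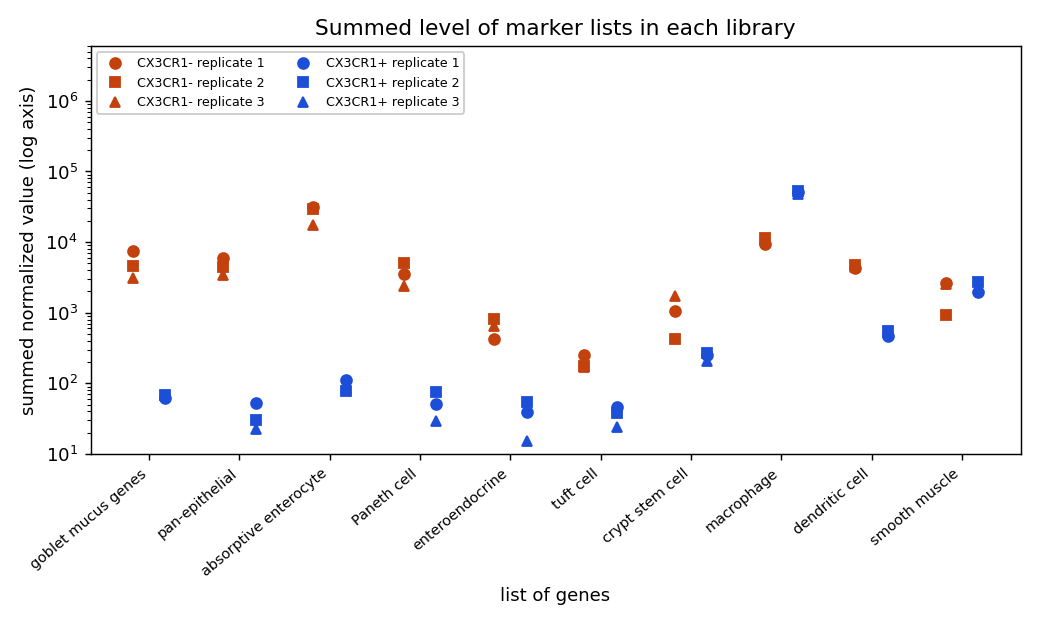
Summed normalized value of the 10 goblet mucus genes and of lists of cell type markers in each library, on a log axis, with CX3CR1- libraries in orange and CX3CR1+ libraries in blue. The goblet mucus sum lies at 3141 to 7567 against 61.2 to 68.8, the macrophage sum is higher in CX3CR1+ libraries, and the smooth muscle sums of the populations overlap.

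The genes whose pattern over the 6 libraries was most like that of Muc2 were found by the Euclidean distance between centred log2 values. Outside the 10 genes, the closest were Guca2b (distance 1.58), Hnf4g (1.64), Sult1b1 (1.70), Sectm1b (1.73) and Apol10a (1.73). Guca2b, the gene of the gut peptide uroguanylin, was at 373, 259 and 302 in CX3CR1- and at 0, 0 and 1.42 in CX3CR1+ libraries. Tff3 ranked 9th among all 17812 tested genes by this distance, Muc13 25th, Clca1 27th and Fcgbp 33rd. Agr2 ranked 78th, Zg16 312th, Spink4 419th and Ccl25 1674th. All these genes share the same 6 libraries. The distance was taken after centring log2(value + 1) and describes likeness in pattern over these libraries. For genes at or near 0 in the CX3CR1+ libraries, it also depends on the level in the CX3CR1- libraries.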

How the data were processed

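Kallisto pseudoalignment of 75 bp single reads to the mouse transcriptome (mm10, GENCODE release M16) and tximport gave estimated counts per gene. The deposited values are signal that the authors normalized between libraries with DESeq2, which was used as such. Since whole multiples (within 0.001) of the smallest step of a library made up no more than 41.0 to 42.7% of its nonzero values, no count test was run. That step gave the approximate reads per library and the value of 3 reads. A fold against 3 CX3CR1+ libraries at or under 3 reads is a lower bound, set against the mean over these libraries of the value of 3 reads, and covers counting error only.

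Libraries were grouped by their titles. Moderated tests by limma (version 3.58.1, R 4.3.3, eBayes with trend) were made, two-sided, on log2(value + 1) for 17812 genes. Adjusted p-values are those of Benjamini-Hochberg, and the procedure was tested on simulated data. Genes named are the 10 genes, the extremes of each list, the sort genes, Epcam, receptors of Ccl25 and the 5 genes nearest to Muc2, and further genes of the lists were named after their values were seen. The members and lists were chosen with earlier results of these data known. Lengths, positions and 31-base stretches came from GENCODE release M21 (GRCm38), promoters from RefSeq, and plots from matplotlib 3.10.9. Alternatives were pseudocounts, filters, scalings, variance priors, weights, a block and leaving out each library. One list of markers of another cell type is not reported here.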

Additional observations from a re-analysis of the deposited data

How the results depend on the processing

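The 9 tested goblet mucus genes gave 140 values under the alternatives, all in the same direction and on the same side of the rule as in the report. The smallest log2 fold changes of 8 of them came with a pseudocount of 10, with 6.57 for Muc2 and 1.60 for Spink4, and that of Ccl25 (1.63) with quantile normalization. The largest adjusted p was 0.0215, for Spink4 without CX3CR1+ replicate 2. The number called higher was 10 without a filter on low values and 7 with a mean of at least 50, and 8 to 9 with a library left out, since Spink4 fell under the limit for testing without CX3CR1- replicate 1 or 3. The other goblet cell genes are counted here together with the Ccl25 receptors. Over these, 7 were called higher and 2 lower with a mean of at least 50, and 1232 of all genes were called higher, as fewer genes were tested. With a library left out in turn, the other goblet cell genes called higher numbered 11 to 14. Of the 20 genes called in these lists, Klf4, Slc12a2, Klk1, Muc1, Muc3a, B4galnt2 and Galnt12 were not called under 2 to 7 of the 16 alternatives, and none reversed. The cause was not tested. The median over all genes was -0.15 with quantile normalization and 0.17 with mitochondrial genes left out. The labels give no replicate numbers, only library numbers that are adjacent in 3 pairs of a CX3CR1- and a CX3CR1+ library, and nothing says that these share a pool or day. The deviations of adjacent libraries from their group means correlated across genes at 0.10, 0.04 and 0.01, so that pairing was not shown. With adjacent numbers as a replicate block, 9 goblet mucus genes were called higher, and 17 higher and 4 lower of the other goblet cell genes. At this depth a value under 1.39 to 5.36 was not measurable, which limits Spdef and Spink4.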
